A study of Homo sapiens with 4 samples.

Results

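Metallothioneins are small cysteine-rich proteins that bind zinc, copper and cadmium, and their genes form a cluster on chromosome 16. The genes described here are 6 metallothionein genes (MT1E, MT1F, MT1G, MT1M, MT1X and MT2A), the zinc-sensing transcription factor MTF1, the zinc exporter SLC30A1 and the zinc importer SLC39A8. These 9 genes were listed by name, with earlier results of these data already known. The list was drawn from 26601 symbols or gene IDs present in the values of every library. Of the 9 genes, 8 were among the 10771 abundant enough to be tested. They were measured by RNA sequencing in the established line MOLM-13, grown from a human acute myeloid leukaemia, in 2 groups of 2 libraries each. Untreated libraries came from cells without dox, and GADD45g libraries from cells given dox (doxycycline, labelled as 1 mg/ml) for 4 days so that they overexpressed GADD45G, a stress-induced gene named for growth arrest and DNA damage. Whether the untreated cells carried the same construct is not stated in the labels, and dox-treated cells without it were not analysed here, so the effect of dox and that of GADD45G cannot be told apart. Levels are RPKM, which is reads per kilobase of gene model and per unit of library depth, with group levels as mean ± SD (n = 2). These are bulk RNA samples, in which fewer cells of a type and less RNA per cell cannot be told apart.

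Zinc inside a cell is held at very low free levels. When it rises, MTF1 binds zinc through its zinc fingers, moves to the nucleus and activates genes whose promoters hold short metal response elements, among them the metallothioneins and SLC30A1. Metallothioneins then take up the metal, SLC30A1 in the plasma membrane pumps it out, and importers of the SLC39 family bring it in. Cadmium, oxidants, glucocorticoids and inflammatory cytokines are also known to induce metallothioneins, and SLC39A8 is known as an importer induced by NF-kB in monocytes and macrophages.

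The coding sequences are shown because the copies are so alike that the assignment of reads between them matters. The letters are those of the GENCODE 29 transcripts (GRCh38), and capitals mark each base that differs from MT2A at the same place.
MT2A: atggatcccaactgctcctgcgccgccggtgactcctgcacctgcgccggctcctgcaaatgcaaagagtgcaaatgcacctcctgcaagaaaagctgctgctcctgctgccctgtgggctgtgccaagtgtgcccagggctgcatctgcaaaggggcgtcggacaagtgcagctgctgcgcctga
MT1G: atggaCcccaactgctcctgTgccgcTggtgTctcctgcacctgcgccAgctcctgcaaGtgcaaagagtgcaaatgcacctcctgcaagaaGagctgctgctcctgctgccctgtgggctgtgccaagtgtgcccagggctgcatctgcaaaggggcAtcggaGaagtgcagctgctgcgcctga
MT1E: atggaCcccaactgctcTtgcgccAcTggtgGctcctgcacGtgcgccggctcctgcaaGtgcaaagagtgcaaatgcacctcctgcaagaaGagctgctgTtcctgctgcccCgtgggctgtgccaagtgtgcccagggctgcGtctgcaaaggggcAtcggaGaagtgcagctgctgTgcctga
MT1F: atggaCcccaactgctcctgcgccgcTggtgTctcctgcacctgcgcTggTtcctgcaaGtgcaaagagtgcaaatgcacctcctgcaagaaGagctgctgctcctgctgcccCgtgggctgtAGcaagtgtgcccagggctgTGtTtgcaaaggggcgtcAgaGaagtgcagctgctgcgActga
MT1X: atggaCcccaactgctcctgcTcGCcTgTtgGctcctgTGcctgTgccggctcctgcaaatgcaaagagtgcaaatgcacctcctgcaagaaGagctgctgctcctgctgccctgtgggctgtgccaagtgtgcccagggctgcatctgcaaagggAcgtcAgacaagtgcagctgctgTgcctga
Each of these reading frames, and that of MT1M, was 186 bases long and held 61 codons before the stop, of which 20 encoded cysteine, the residue that holds the metal. MT1G differed from MT2A at 9 positions, MT1E and MT1X at 14, MT1F at 16 and MT1M at 19. The longest identical stretch between any 2 of the 6 was 96 bases, shared by MT1G and MT1X. Over the whole transcripts, 16.5% of the windows of 50 bases of MT1G also occurred, on either strand, in a transcript of another gene. This share was 3.0% for MT2A, 7.1% for MT1E, 1.2% for MT1F and 18.3% for MT1X. At 100 bases MT1X alone among the 6 copies still shared windows (11.3%). None of these windows occurred in the other copies or in MT1A, MT1B or MT1H. The genes that held them were not listed and can include metallothionein pseudogenes. Read length and the treatment of reads with several matches are not stated by the labels, so the division of reads among copies is uncertain and the copies are also given as a sum.

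The promoters of an expressed pair of copies, of a silent copy and of SLC30A1 are shown for the metal response elements that MTF1 is known to bind. Each line gives the 250 bases before the start site of the RefSeq gene (GRCh38.p14), and capitals mark the core letters TGCACNC or TGCGCNC on either strand.
MT2A promoter, chr16:56608334-56608583, plus strand: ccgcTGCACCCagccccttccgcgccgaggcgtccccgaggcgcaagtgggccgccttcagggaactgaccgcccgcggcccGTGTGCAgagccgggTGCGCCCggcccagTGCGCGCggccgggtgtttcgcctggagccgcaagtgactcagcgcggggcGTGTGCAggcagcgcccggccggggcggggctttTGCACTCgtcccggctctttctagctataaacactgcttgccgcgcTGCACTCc
MT1X promoter, chr16:56682220-56682469, plus strand: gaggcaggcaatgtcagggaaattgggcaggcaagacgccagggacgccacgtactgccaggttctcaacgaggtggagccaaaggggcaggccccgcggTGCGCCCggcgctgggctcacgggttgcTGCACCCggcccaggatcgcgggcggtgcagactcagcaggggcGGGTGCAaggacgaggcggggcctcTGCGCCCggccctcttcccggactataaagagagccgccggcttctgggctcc
MT1H promoter, chr16:56669564-56669813, plus strand: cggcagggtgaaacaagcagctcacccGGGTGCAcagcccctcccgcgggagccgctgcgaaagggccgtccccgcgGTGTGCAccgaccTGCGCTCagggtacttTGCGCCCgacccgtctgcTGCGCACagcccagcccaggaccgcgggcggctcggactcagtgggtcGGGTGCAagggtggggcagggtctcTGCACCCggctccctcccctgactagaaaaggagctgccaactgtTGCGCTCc
SLC30A1 promoter, chr1:211579162-211579411, minus strand: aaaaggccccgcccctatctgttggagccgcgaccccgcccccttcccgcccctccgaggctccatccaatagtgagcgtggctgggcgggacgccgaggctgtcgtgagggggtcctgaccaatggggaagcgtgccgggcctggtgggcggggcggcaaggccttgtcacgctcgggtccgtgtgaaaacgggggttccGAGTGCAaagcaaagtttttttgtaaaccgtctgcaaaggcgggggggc
The windows held 7 matches for MT2A, 4 for MT1X, 8 for MT1H and 1 for SLC30A1. In windows of 300 bases that also take in 50 bases after the start, 29.6% of 35116 RefSeq promoters had at least 1 match and 0.601% had at least 4. MT2A also held 1 match to the AP-1 letters TGACTCA, which 4.9% of all promoters had. Of the 9 genes, 5 had a promoter in the table used; MTF1 had no match, and SLC39A8 had 1 in 1 of its 3 entries. The number of matches did not order the copies by level, since MT1H, with 8, had 0 reads in every library. These matches are letters only and show no binding.

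GADD45G, the gene to be overexpressed, separated the groups as labelled. It stood at 10.5 and 0.289 RPKM in untreated replicates 1 and 2 and at 3236 and 2118 RPKM in GADD45g replicates 1 and 2. Depth was 15683931 to 18895470 reads per library, recovered from the values. All 9 listed myeloid markers were above 0 in every library, with PTPRC, the pan-leukocyte antigen CD45, at 23.9 to 36.1 RPKM and SPI1, the myeloid transcription factor PU.1, at 68.7 to 101 RPKM. Their sum differed between the groups, at 1315 and 1031 RPKM in untreated and 437 and 400 RPKM in GADD45g cells. Of the 7 tested markers, 2 were called lower and 1 higher. The sum was mostly LYZ in every library, so it does not describe the other markers. LYZ, lysozyme, went from 1173 and 868 to 268 and 242 RPKM, CSF3R, the receptor of granulocyte colony-stimulating factor, from 18.0 and 26.9 to 3.66 and 3.68 RPKM and FLT3, which was too low to be tested, from 0.958 and 1.19 to 0.0889 and 0.0451 RPKM. Other markers of the list were higher in GADD45g cells. ITGAM went from 8.89 and 12.9 to 21.2 and 17.6 RPKM and CD14 from 0.565 and 0.541 to 1.37 and 1.49 RPKM. PTPRC and SPI1 were also higher in both GADD45g libraries, while CD33 and FCGR1A were lower. The part of these differences in the levels of the zinc genes was not tested. Replicate 1 of both groups stood apart in one respect. The 8 epithelial markers summed to 41.7 and 40.9 RPKM in untreated and GADD45g replicate 1 but to 0.423 and 0.245 RPKM in untreated and GADD45g replicate 2, where 5 and 4 of them were at 0. The design text calls the libraries biological replicate experiments.

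Metallothioneins of MOLM-13 fell in part when GADD45G was expressed, while MTF1 rose. MT1G, MT1E and MT1F were 3.71-fold, 1.94-fold and 2.29-fold lower in mean RPKM, and MTF1 was 2.61-fold higher. MT2A, the most abundant copy, was 1.40-fold lower in mean, a difference that did not pass the test, and MT1X, SLC30A1 and SLC39A8 did not pass either. Of the 8 tested genes, 1 was called higher and 3 lower, where calls made up 38.9% of all tested genes, 12.2% higher and 26.7% lower. The GADD45g values lay wholly above the untreated ones for 1 of the 8 genes and wholly below for 5, against 24.1% and 45.8% of all tested genes. The members' counts are to be read against that background, in which many genes moved. A call means a Benjamini-Hochberg adjusted p under 0.05 with limma on log2(RPKM + 1), a scale that understates changes of low genes. The median log2 change was -0.46 over the 8 genes and -0.92 over the 5 tested metallothioneins, beside -0.21 over all tested genes. TMM scaling, which moved the median of all genes from -0.21 to 0.01, left calls for MT1G and MTF1 alone.

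**Figure D1:**
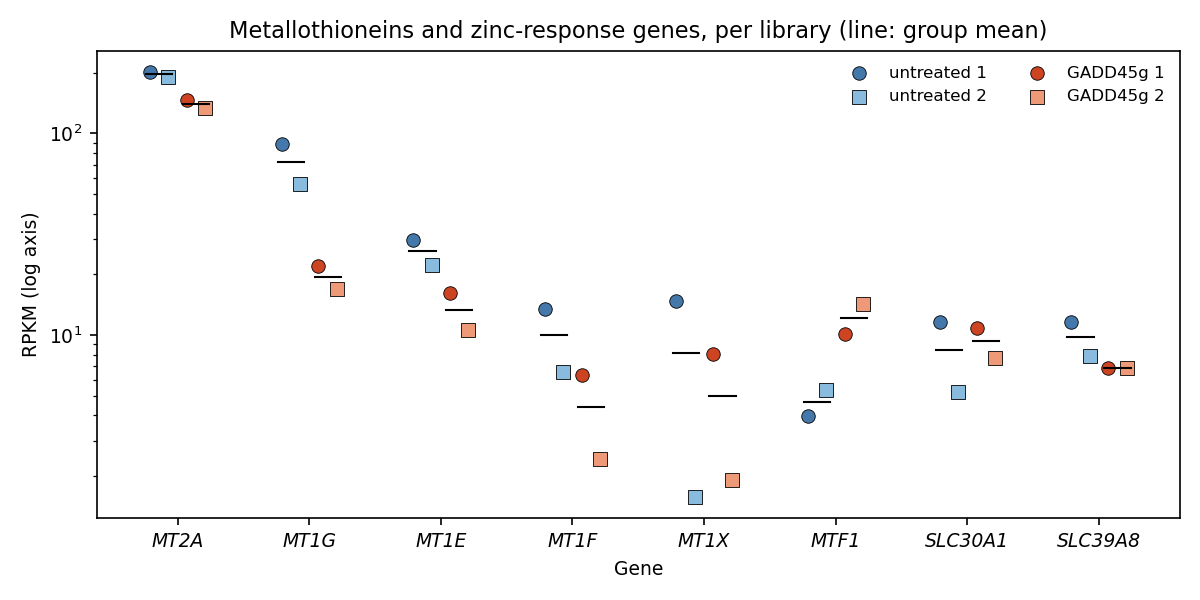
RPKM of the 8 tested genes in each library on a log axis, with circles for replicate 1, squares for replicate 2 and a line at each group mean. The GADD45g points of MT1G, MT1E, MT1F, MT2A and SLC39A8 lie below both untreated points, those of MTF1 above, and those of MT1X and SLC30A1 overlap.

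MT2A (ENSG00000125148.6), which encodes the ubiquitous metallothionein-2, had the highest level of the 9 genes in every library. It stood at 201 and 190 RPKM in the untreated libraries and at 146 and 133 RPKM in the GADD45g libraries. Both GADD45g values were below both untreated values, and within each group the libraries differed by 1.06-fold and 1.10-fold only. The means were 196 ± 8.07 and 139 ± 9.23 RPKM. The log2 change of -0.49 ± 0.25 (SE) had an adjusted p of 0.144 with limma (unadjusted p = 0.0753), so the test did not call it although the groups did not overlap. It was called under none of 17 alternative settings, with adjusted p from 0.0874 to 0.512. The reads behind these values numbered 4912, 3870, 3579 and 2754 in the same order, and counting error alone spans 196 to 207 RPKM in untreated replicate 1 and 128 to 138 RPKM in GADD45g replicate 2 (exact Poisson intervals of 95%).

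MT1G (ENSG00000125144.9) changed most in fold among the copies. It stood at 88.4 and 56.1 RPKM in the untreated libraries and at 22.1 and 16.9 RPKM in the GADD45g libraries. The lower untreated library was still well above both GADD45g libraries. The means fell from 72.3 ± 22.8 to 19.5 ± 3.69 RPKM, with a log2 change of -1.81 ± 0.28 (limma, adjusted p = 0.000554). The call held under all 17 alternatives run, with log2 changes from -2.14 to -1.49. Replicate 1 alone gave a 4.00-fold lower level and replicate 2 alone a 3.33-fold lower level, each from a single library per group. MT1G remained second in level among the copies in every library, while its share of the summed metallothionein RPKM was 25.4% and 20.3% in untreated and 11.1% and 10.2% in GADD45g cells.

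MT1E (ENSG00000169715.10) was next in level, at 29.7 and 22.2 RPKM in the untreated and 16.1 and 10.6 RPKM in the GADD45g libraries. The groups did not overlap, and the fall was 1.84-fold in replicate 1 and 2.10-fold in replicate 2. The means were 26.0 ± 5.25 and 13.4 ± 3.93 RPKM, with a log2 change of -0.92 ± 0.27 (limma, adjusted p = 0.0184). The call ended without untreated replicate 1 (adjusted p = 0.133), without GADD45g replicate 2 (0.174), with TMM scaling (0.0654), with the median change shifted to 0 (0.0581) and with no filter on low values (0.115).

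MT1F (ENSG00000198417.5) stood at 13.5 and 6.58 RPKM in the untreated libraries and at 6.33 and 2.42 RPKM in the GADD45g libraries. The second untreated library and the first GADD45g library were close, at 195 and 226 reads in libraries of unequal depth, so the gap between the groups was narrow. In each group replicate 1 was the higher one, by 2.05-fold and 2.62-fold. The means were 10.0 ± 4.87 and 4.38 ± 2.77 RPKM, with a log2 change of -1.06 ± 0.38 (limma, adjusted p = 0.0441). This call was lost in 10 of 17 alternatives, among them without untreated replicate 1 (0.366), without untreated replicate 2 (0.0534), without GADD45g replicate 2 (0.371) and TMM, upper quartile and quantile scaling (0.0593 to 0.111). Compared within a replicate number, MT1F was 2.13-fold and 2.72-fold lower.

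MT1X (ENSG00000187193.8) separated the replicates and not the groups. It stood at 14.7 and 1.58 RPKM in the untreated libraries and at 8.09 and 1.91 RPKM in the GADD45g libraries, from 490, 44, 271 and 54 reads. Replicate 1 was 9.30-fold above replicate 2 in untreated cells and 4.24-fold above it in GADD45g cells, and the groups overlapped. The log2 change was -0.31 ± 0.70 (limma, adjusted p = 0.755). It was -1.61 without untreated replicate 2 and 0.99 without untreated replicate 1, so even its direction rested on which library was kept. Replicate 1 was lower in GADD45g cells by 1.82-fold, while in replicate 2 the untreated level was 0.830 times the GADD45g level.

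MT1X and the epithelial markers were both higher in replicate 1 than in replicate 2 of each group. In replicate 1, with 1 library per group, MT1X was at 14.7 RPKM in untreated and 8.09 RPKM in GADD45g cells. The epithelial markers summed to 41.7 and 40.9 RPKM in the same libraries. KRT19, a keratin of simple epithelia, was at 12.0 and 10.7 RPKM in replicate 1 of the untreated and GADD45g cells and at 0 in replicate 2 of both. EPCAM, an epithelial adhesion protein, was at 5.75 and 5.82 RPKM in replicate 1 and at 0 in replicate 2. Of the 4 epithelial markers tested, 0 were called between the groups. All other detected metallothioneins and SLC30A1 were likewise higher in replicate 1 of both groups. In untreated and GADD45g cells the ratio of replicate 1 to replicate 2 was 2.05 and 2.62 for MT1F, 1.58 and 1.31 for MT1G, 1.33 and 1.52 for MT1E, 1.06 and 1.10 for MT2A and 2.23 and 1.40 for SLC30A1. MTF1 was lower in replicate 1 (0.741 and 0.708 times replicate 2), and SLC39A8 was 1.49 and 0.995 times replicate 2. The part of these epithelial transcripts in the levels of the metallothioneins and SLC30A1 was not tested.

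**Figure D2:**
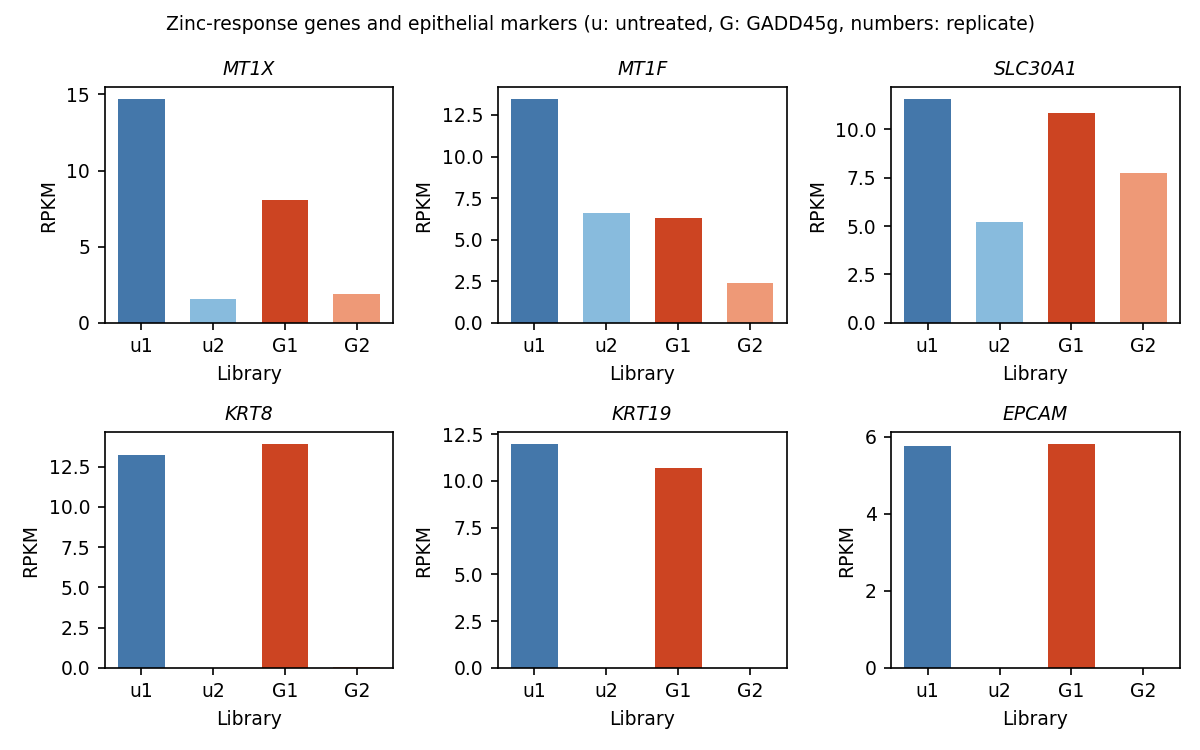
RPKM per library (u1 and u2 untreated, G1 and G2 GADD45g) of MT1X, MT1F and SLC30A1 above and of the epithelial markers KRT8, KRT19 and EPCAM below, with axes from 0. Bars of replicate 1 are taller than those of replicate 2 within each group in all 6 panels, and the lower panels fall to 0 or near it in replicate 2.

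MT1M (ENSG00000205364.3) had 0 reads in all 4 libraries, which allows a level of up to 0.169 to 0.203 RPKM per library (3 reads; counting error only). It was not tested. Of the 7 other metallothionein genes and pseudogenes listed in all files, MT1A, MT1B, MT1H, MT4 and the pseudogenes MT1CP and MT1DP were at 0 in every library, and the brain-enriched copy MT3 had 1 read, in GADD45g replicate 1. For 5 more there is no value of GADD45g replicate 1 here. MT1L, MT1HL1 and MT1JP were at 0 in the other 3 libraries, whereas the pseudogene MT1P3 stood at 1.81, 2.16 and 3.89 RPKM and MT1XP1 at 0.286, 1.03 and 0 RPKM in untreated 1, untreated 2 and GADD45g 2. Among the genes that are not pseudogenes, those with more than 1 read were MT2A, MT1G, MT1E, MT1F and MT1X.

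Summed over MT1E, MT1F, MT1G, MT1M, MT1X and MT2A, the metallothionein level was 348 and 276 RPKM in the untreated libraries and 198 and 165 RPKM in the GADD45g libraries. Both GADD45g libraries were below both untreated ones. The sum depends less on how reads were divided among copies, although in RPKM a read still counts by the length of the gene model. Its means were 312 ± 50.3 and 182 ± 24.0 RPKM, which is 1.72-fold lower. In reads, the sum was 7711 and 5136 in the untreated and 4710 and 3261 in the GADD45g libraries. Fitted as 1 feature it gave a log2 change of -0.78 ± 0.27 (limma, adjusted p = 0.0401). This call did not survive leaving out any single library (adjusted p = 0.0562 to 0.206 for the 4 omissions), TMM or upper quartile scaling (0.156 and 0.0933) or a shift of the median change to 0 (0.124).

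The make-up of the sum shifted towards MT2A. Its share of the summed RPKM was 57.9% and 68.7% in the untreated libraries and 73.5% and 80.7% in the GADD45g libraries. The ratio of MT2A to MT1G RPKM was 2.28 and 3.39 in untreated cells and 6.60 and 7.87 in GADD45g cells. Neither range overlapped between the groups, and this ratio within a library does not depend on the scaling of libraries. It was given no test of its own. The untreated libraries were also apart from each other in both measures, with replicate 2 nearer to the GADD45g cells. As a share of the summed reads, MT2A held 63.7% and 75.4% in the untreated and 76.0% and 84.5% in the GADD45g libraries. By that measure untreated replicate 2 and GADD45g replicate 1 were nearly equal.

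**Figure D3:**
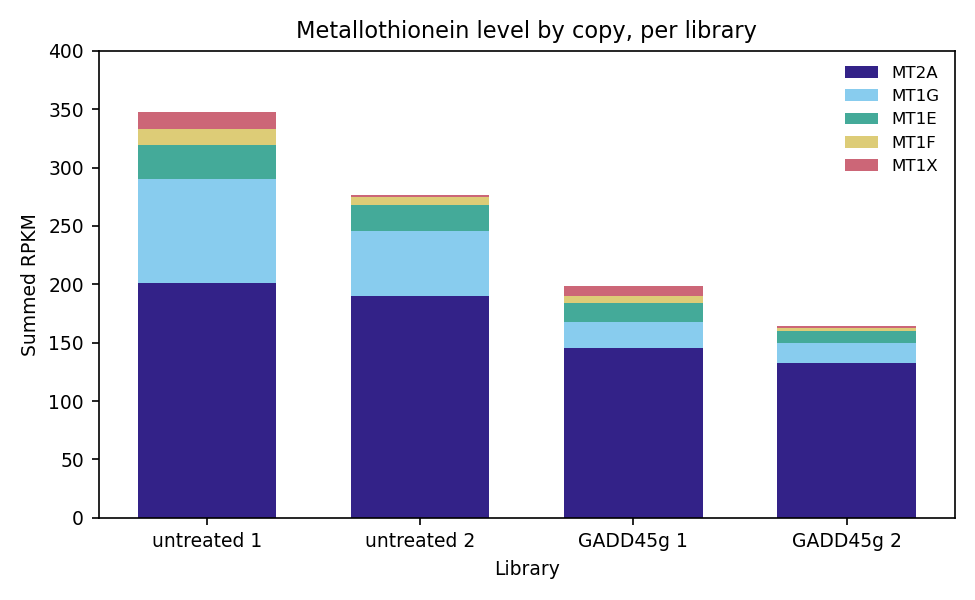
Summed RPKM of the 5 detected metallothionein copies in each library, stacked by copy, with the axis from 0. The total falls from 348 and 276 RPKM to 198 and 165 RPKM, and the segment of MT1G shrinks more in proportion than that of MT2A.

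MTF1 (ENSG00000188786.9), the transcription factor that activates metallothionein genes, stood at 3.98 and 5.36 RPKM in the untreated libraries and at 10.1 and 14.3 RPKM in the GADD45g libraries. The groups were well apart, and within each replicate number the untreated level was 0.393 and 0.376 times the GADD45g level. The means rose from 4.67 ± 0.98 to 12.2 ± 2.94 RPKM, with a log2 change of 1.21 ± 0.25 (limma, adjusted p = 0.00284). The reads behind these levels numbered 599, 675, 1533 and 1829. Of 18 alternatives the call was lost only with no filter on low values (0.0553). MTF1 mRNA and the mRNA of its known target MT1G thus changed in opposite directions. MT1E and MT1F were also lower, but lost their calls with TMM scaling (limma adjusted p = 0.0654 and 0.0955). The known targets MT2A, MT1X and SLC30A1 were not called, and the log2 change of SLC30A1 was 0.20. MTF1 is controlled mainly by zinc binding and movement to the nucleus, which RNA levels do not measure.

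SLC30A1 (ENSG00000170385.9), the plasma membrane zinc exporter ZnT1 and another known MTF1 target, stood at 11.6 and 5.19 RPKM in the untreated libraries and at 10.9 and 7.73 RPKM in the GADD45g libraries. The groups overlapped, with replicate 1 above replicate 2 in both. Its log2 change was 0.20 ± 0.32 (limma, adjusted p = 0.646) and turned to -0.31 without untreated replicate 2 and to -0.016 without GADD45g replicate 1. It had 446 to 1191 reads per library, so that counting error was small beside the spread between replicates.

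SLC39A8 (ENSG00000138821.8), the importer ZIP8 for zinc, manganese and cadmium, stood at 11.6 and 7.83 RPKM in the untreated libraries. The GADD45g libraries were nearly equal, at 6.84 and 6.88 RPKM, and lay below both. The means were 9.74 ± 2.70 and 6.86 ± 0.03 RPKM, and the log2 change of -0.43 ± 0.24 did not pass (limma, adjusted p = 0.184). It did not pass under any of 18 alternatives either (0.0592 to 0.589).

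By level, the untreated cells had MT2A first, then MT1G and MT1E. These 3 neighbours did not overlap each other. SLC30A1, SLC39A8, MT1F and MT1X followed at means of 8.15 to 10.0 RPKM and could not be ordered beyond the spread between their libraries, and MTF1, at 4.67 RPKM, was the lowest by mean and lay within the range of MT1X. In GADD45g cells MT1G and MT1E were closer (16.9 to 22.1 and 10.6 to 16.1 RPKM), and MTF1 at 10.1 to 14.3 RPKM overlapped MT1E.

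Of the 6 other zinc exporters tested among SLC30 genes and TMEM163, 1 was called higher and 1 lower (median log2 change -0.11), a share near that over all tested genes (12.2% higher and 26.7% lower, median -0.21). SLC30A4, the exporter ZnT4 of endosomal and secretory vesicles, went from 0.0803 and 0.131 RPKM to 2.31 and 5.69 RPKM, 37.9-fold by mean. It reached the mean of 1 RPKM that the fit required through the GADD45g libraries alone and so had to differ. Its log2 change of 2.09 (1.58 without GADD45g replicate 2) is given as a description, and its call supports nothing. An antisense gene, SLC30A4-AS1, is named for this locus, and strand is not stated, so reads that fall in both cannot be told apart. TMEM163, a vesicular zinc exporter, fell from 15.9 and 13.7 RPKM to 9.71 and 7.43 RPKM (log2 change -0.73 ± 0.23; limma, adjusted p = 0.0273), a call lost in 9 of 18 alternatives, including each of the 4 that left out a library. SLC30A9 and SLC30A6 had log2 changes of -0.32 and -0.13 and were not called (limma adjusted p = 0.307 and 0.705).

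Among the 10 other tested importers of the SLC39 family, 4 were called lower and 1 higher (median log2 change -0.36), beside 26.7% lower and 12.2% higher and a median of -0.21 over all tested genes. SLC39A3 (ZIP3), a plasma membrane importer, went from 9.78 and 9.73 RPKM to 3.09 and 2.01 RPKM, with a log2 change of -1.62 ± 0.23 (limma, adjusted p = 0.000344). SLC39A10 (ZIP10) went from 9.85 and 6.27 to 2.95 and 2.81 RPKM (log2 change -1.20 ± 0.24; limma, adjusted p = 0.00292). These calls for plasma membrane importers held under every omission of a library. SLC39A4 (ZIP4), the importer mutated in acrodermatitis enteropathica, went from 2.43 and 2.72 to 1.06 and 0.722 RPKM. It passed the filter through the untreated libraries, with a GADD45g mean of 0.892 RPKM, so its call is no support, and the call ended without GADD45g replicate 2 (0.0961). SLC39A11 (ZIP11) went from 13.1 and 10.0 to 6.10 and 4.81 RPKM, a call that ended without untreated replicate 1 (0.0621) or GADD45g replicate 2 (0.0877). The limma adjusted p with all libraries was 0.00734 for SLC39A4 and 0.00804 for SLC39A11. The single riser, named after its value was seen, was SLC39A13 (ZIP13), an importer of the early secretory pathway, at 5.66 and 7.30 against 14.2 and 11.2 RPKM (log2 change 0.87; limma, adjusted p = 0.0128). Its call ended without untreated replicate 1 (0.0839) and without GADD45g replicate 1 (0.129). SLC39A7 (ZIP7), which releases zinc from the endoplasmic reticulum and was likewise singled out after its values were seen, had the highest level of the list at 52.6 and 56.0 against 93.8 and 75.9 RPKM. It was not called on the deposited scale (limma adjusted p = 0.0638), and it was called after each of the 4 rescalings run (0.0135 to 0.0345).

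**Figure D4:**
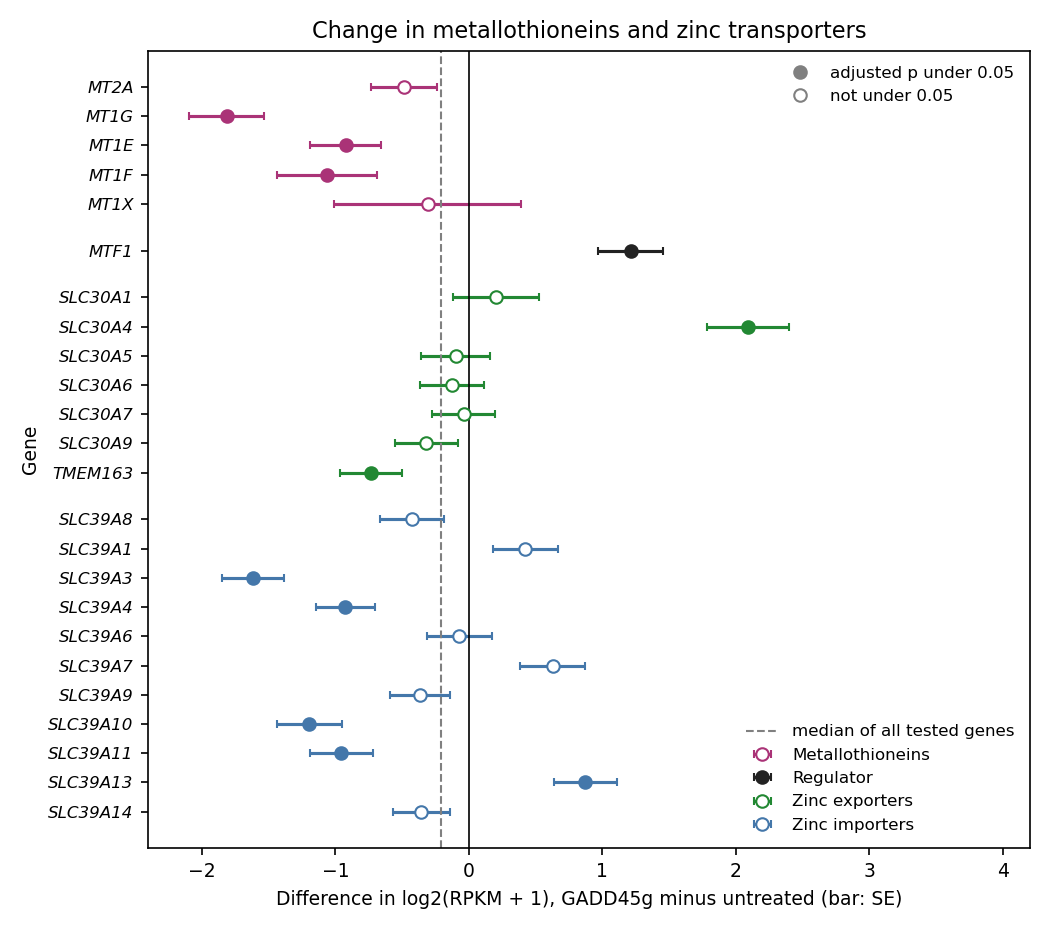
Log2 change (GADD45g minus untreated, with SE bars) of the tested metallothioneins, MTF1, zinc exporters and zinc importers, with filled points for an adjusted p under 0.05 and a dashed line at the median of all tested genes, -0.21. Filled points lie on the left for MT1G, MT1E, MT1F, TMEM163, SLC39A3, SLC39A4, SLC39A10 and SLC39A11 and on the right for MTF1, SLC30A4 and SLC39A13.

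Metallothioneins also bind copper. Of 12 tested copper genes 5 were called higher and 2 lower (median log2 change 0.29), beside 12.2% and 26.7% of all tested genes. SLC31A1 (CTR1), the high-affinity copper importer, went from 14.1 and 13.6 to 30.5 and 33.1 RPKM (log2 change 1.14 ± 0.22; limma, adjusted p = 0.00223). ATP7A, the copper-exporting ATPase, went from 3.27 and 2.67 to 6.35 and 6.60 RPKM (log2 change 0.92; limma, adjusted p = 0.0063), a call that ended without either GADD45g library (0.0511 and 0.0628). STEAP3, an endosomal reductase of iron and copper, stood at 10.5 and 13.3 RPKM in untreated and 0.752 and 0.664 RPKM in GADD45g cells, 16.8-fold lower by mean. It passed the filter through the untreated libraries alone, so this difference is a description and its call no support. SCO1, which delivers copper to cytochrome oxidase, fell by 1.02 on the log2 scale (limma, adjusted p = 0.00809), and lost its call without untreated replicate 1 (0.0733) or GADD45g replicate 2 (0.089).

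The remaining lists hold genes known to be induced by the same kinds of agents as metallothioneins, and genes that carry, take up or store other metals. Their counts stand beside 12.2% higher and 26.7% lower calls over all tested genes (1314 and 2871), which TMM scaling turned to 1957 and 2040. In the heavy metal and oxidant list 7 of 12 tested genes were called higher and 0 lower (median log2 change 0.81). Of these calls, that of NQO1 ended without untreated replicate 2, GADD45g replicate 1 or GADD45g replicate 2 (limma adjusted p = 0.0778 to 0.0803). The call of NFE2L2 ended without untreated replicate 1, untreated replicate 2 or GADD45g replicate 2 (0.0772 to 0.224) and with no filter (0.101). GCLC, with a log2 change of -0.64, was not called (0.0557) but was called lower in 5 of 18 alternatives (0.0252 to 0.0357), among them the replicate block and the omission of untreated replicate 2. NQO1, NFE2L2 and GCLC were named after their values were seen. HSPA1B, a heat shock protein gene that cadmium induces, went from 10.8 and 9.82 to 72.2 and 50.3 RPKM (log2 change 2.44; limma, adjusted p = 4.78e-05). TXNRD1, thioredoxin reductase, went from 60.8 and 45.5 to 265 and 252 RPKM, and SLC7A11, the cystine importer, from 24.9 and 13.9 to 83.7 and 75.7 RPKM. HSPA1A had a log2 change of 2.11. HSPA1A and HSPA1B are nearly identical in sequence, so the reads of both are uncertain, and both are counted among the 7 calls. The limma adjusted p of TXNRD1, SLC7A11 and HSPA1A was 8.57e-05, 0.000327 and 9.47e-05. HMOX1, heme oxygenase, was named after its values were seen and went from 5.47 and 6.79 to 18.3 and 17.9 RPKM.

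In the list of glucocorticoid-induced genes 7 of 9 tested genes were called higher and 1 lower (median log2 change 1.38). The 9 include NR3C1, the glucocorticoid receptor itself, which is named only to describe the list and was not called. DUSP1, a phosphatase of MAP kinases, went from 1.00 and 2.15 to 43.1 and 31.1 RPKM, KLF9 from 4.14 and 3.17 to 24.1 and 24.5 RPKM and ZFP36, an mRNA decay factor, from 11.0 and 18.1 to 59.6 and 63.2 RPKM. FKBP5, a cochaperone of the glucocorticoid receptor, went the other way, from 65.7 and 62.9 to 19.9 and 21.5 RPKM (log2 change -1.59; limma, adjusted p = 0.000369). The limma adjusted p was 4.32e-06 for DUSP1, 2.43e-05 for KLF9 and 0.000211 for ZFP36.

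In the interferon and STAT3 acute phase list 3 of 8 tested genes were called higher and 1 lower (median log2 change 0.61). The transcription factor CEBPB rose by 1.91 on the log2 scale and BCL3 by 1.67 (limma, adjusted p = 0.000258 and 0.000298). SOCS3, the feedback inhibitor of cytokine receptors, stood at 0.683 and 0.467 RPKM in untreated and 6.28 and 5.94 RPKM in GADD45g cells. It passed the filter through the GADD45g libraries alone, so its call, counted above, is no support. IL6R, the receptor of interleukin-6, fell by 0.72 (limma, adjusted p = 0.0257), a call lost in 7 of 18 alternatives, among them without untreated replicate 1 (0.0832), GADD45g replicate 1 (0.0933) or GADD45g replicate 2 (0.127). Of 7 tested genes that carry, take up or store other metals 2 were called higher and 1 lower (median log2 change 0.52). FTH1, the ferritin heavy chain, was at 925 and 1088 RPKM in untreated and 5671 and 6969 RPKM in GADD45g cells (log2 change 2.65; limma, adjusted p = 8.4e-05), although processed pseudogenes make its reads uncertain. TMEM165, a Golgi manganese carrier, had a log2 change of 0.72 (limma, adjusted p = 0.0412), and ATP13A2, a lysosomal ATPase, one of -0.97 (0.00643). The call of TMEM165 ended without untreated replicate 2, GADD45g replicate 1 or GADD45g replicate 2 (0.0843 to 0.233) and that of ATP13A2 without GADD45g replicate 2 (0.0744). FTL, the ferritin light chain, had a log2 change of 0.80 and was not called (limma adjusted p = 0.0844), but passed in 7 of 18 alternatives.

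The genes whose pattern over the 4 libraries lay closest to that of MT2A were PSME3, UBE3C, ING2, DUS2 and EWSR1. Likeness was the Euclidean distance between log2(RPKM + 1) values centred on each gene's own mean, and these 5 had distances of 0.0135 to 0.0261 among 10144 genes compared. As many as 43 genes lay within a distance of 0.1. PSME3, for instance, was at 23.8 and 22.1 RPKM in untreated and 17.0 and 15.3 RPKM in GADD45g cells. None of the 5 was called on all libraries (limma adjusted p = 0.0966 to 0.11), as MT2A was not. The other metallothioneins were left out of this comparison beforehand, together with MTF1, SLC30A1 and SLC39A8, so none of them could appear.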

How the data were processed

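Total RNA was sequenced in 4 libraries of MOLM-13 cells, 2 untreated and 2 given dox to overexpress GADD45G. Groups came from the treatment labels and titles. The authors deposited RPKM, 1 value for each Ensembl gene ID, per the file headers, and the tools TopHat, Cuffnorm and Cuffdiff and the build hg19 are named by the submitters' processing notes with no version or role. The labels state neither strand nor read length. The complete files list 57820 IDs, of which 51996 were paired with a symbol; the values of GADD45g replicate 1 used here stop partway through a row, past 27332 IDs, and the fit was limited to genes with a value in each library. All 9 genes described are in that part.

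Low values were whole multiples of 1 read (100.0% of those checked, up to 20 reads, within 0.01 reads) for genes with a model identical to that of GENCODE release 29. This gave the depths of 18778791, 15683931, 18895470 and 15968886 reads for untreated 1 and 2 and GADD45g 1 and 2, and the reads of each gene. In a 1 kb gene, 1 read equals 0.0529 to 0.0638 RPKM. For 0 reads the upper limit was set at 3 reads; intervals of 95% are exact Poisson and cover counting error only.

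Rows of 1 symbol were summed, genes whose mean over all 4 libraries reached 1 RPKM entered the fit, and limma 3.58.1 in R 4.3.3 (lmFit and eBayes, trend on) was fitted to log2(RPKM + 1) without further scaling, two-sided, with Benjamini-Hochberg adjustment over 10771 genes and a threshold of 0.05. The code was tested on simulated data. The labels do not say whether replicates were separate cultures beyond the design text's wording, so p-values measure the spread between these libraries.

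The members, lists, naming rule and tests were chosen with earlier results of these data known. Named are all 9 members, up to 4 tested genes with the smallest adjusted p per list, the other metallothioneins, the 5 genes closest to MT2A and GADD45G; names outside this rule are marked. Alternatives were pseudocounts of 0.1 and 5, no filter or one at 5 RPKM, TMM, upper quartile and quantile scaling, a replicate block, eBayes with the trend off or a robust prior, the omission of each library, the row with the highest mean per symbol and the metallothioneins summed. Added after seeing the data were voom on the recovered reads, centring the changes on a median of 0, and these settings for the summed metallothioneins.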

Additional observations from a re-analysis of the deposited data

Results flagged for a closer look

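Some gene IDs related to the zinc genes are outside the part of the GADD45g replicate 1 values used here and entered no comparison. The metallothionein pseudogene MT1P3 stood at 3.89 RPKM in GADD45g replicate 2, above the 1.81 and 2.16 RPKM of untreated replicates 1 and 2. SLC30A4-AS1, named as antisense to SLC30A4, stood at 5.17 RPKM in GADD45g replicate 2, against 0.0137 and 0.0492 RPKM in the untreated libraries. Both were flagged because their level in this library lay above that of both untreated libraries. With 1 library there is no test.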

How the results depend on the processing

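Limma called 4185 genes, 1314 higher and 2871 lower. The count was 2462 with no filter on low values and ranged from 2597 (without GADD45g replicate 2) to 3582 over the 4 omissions of a library. The split of higher and lower calls depended on scaling: it was 1957 and 2040 with TMM, 1874 and 2080 with quantile normalization, 1706 and 2288 with upper quartile scaling and 1877 and 2045 with the median change shifted to 0. Of the 8 tested genes 4 were called; 1 was called with no filter, 2 with TMM scaling, 2 with the shifted median and 2 to 4 over the omissions. With a replicate block, in which the title suffix pairs the libraries, 4987 genes and 4 of the 8 were called. Over the tested genes, deviations of same-numbered libraries from their group means correlated at 0.35. The epithelial markers also split by replicate number in both groups, a split that the main fit did not model. With 2 pairs, whether the libraries were paired by design cannot be told. The log2 ratio of the summed metallothionein means was -0.78, and -0.94 to -0.61 over the omissions. Directions reversed for MT1X (-1.61 to 0.99 over the omissions, above 0 without untreated replicate 1 and, at 0.51, without GADD45g replicate 2) and SLC30A1 (-0.31 to 0.72 over the omissions, below 0 without untreated replicate 2 and, at -0.016, without GADD45g replicate 1). SLC30A6 turned to 0.12 with TMM, 0.038 with upper quartile scaling, 0.072 with quantile normalization and 0.084 with the shifted median, and lay from -0.34 to 0.087 over the omissions. Over 139 values for the 8 genes under the alternatives, 119 kept direction and side of the threshold, 16 lost the call and 4 reversed. The cause was not tested. Depth limits only genes at or near 0, such as MT1M.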

Other observations

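SLC39A13-AS1, named as antisense to SLC39A13 and also outside the comparison, stood at 7.85 and 9.05 RPKM in the untreated libraries and at 1.29 RPKM in GADD45g replicate 2, the opposite order to SLC39A13 itself. The metallothionein pseudogene MT1XP1 stood at 0.286 and 1.03 RPKM in the untreated libraries and at 0 in GADD45g replicate 2.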
